A study of Mus musculus with 8 samples.

Results

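Ferritin is the protein shell in which cells store iron, built from light and heavy subunits, and it stands at the centre of a small set of genes that take up, export, release and sense iron. The present account covers 10 of these genes, namely Ftl1, Fth1, Tfrc, Slc40a1, Slc11a2, Ireb2, Aco1, Ncoa4, Steap3 and Fbxl5. They were found by symbol in a table of 40840 genes, and all 10 were present and tested. The set was selected on the counts of Ftl1, the ferritin light chain, which took a larger share of the treated libraries, so the values of Ftl1 are given as a description without a test, while the other 9 genes were assessed in the fit over all genes.

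RNA-seq libraries were made from 8 cultures of primary mouse hepatic stellate cells (HSCs), liver cells that store retinoids in the space around the sinusoids and turn on plastic into myofibroblasts that lay down collagen (pMF-HSCs). Cells came from wild-type male C57BL/6J mice aged 15 to 18 weeks, and were enriched on a Nycodenz density gradient, sorted by retinoid autofluorescence and cultured for 7 days in DMEM with 5% fetal bovine serum. They then received vehicle (DMSO, the control group, n = 4) or 50 µM of OSMI-1 (the OGTi group, n = 4) for 24 h. OSMI-1 is a small-molecule inhibitor of O-GlcNAc transferase (OGT), the enzyme that attaches the sugar O-GlcNAc to intracellular proteins, and no allele differed between the groups. The treatment was applied to a culture model on plastic at a single dose and time, and the labels do not say which animals gave which culture.

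Libraries held between 30068876 and 37372420 expected counts, so counting error was small for the iron genes except Steap3. All 10 stellate and myofibroblast markers on a fixed list had a mean TPM (a transcript level corrected for length and depth) of at least 1 in both groups, with summed levels of 7299.54 to 14794.9 TPM in control and 5839.47 to 15131.2 TPM in OGTi libraries. In edgeR 2 of the 10 were lower, Lrat (log2 fold change -1.78, adjusted p = 0.00232) and Pdgfrb (-1.68, adjusted p = 0.00154), and 8 were not called, with estimates from -0.85 (Col1a1) to 0.53 (Tagln). Of those not called, Col1a1 (adjusted p = 0.0761) and Col3a1 (-0.72, adjusted p = 0.0517) were lower in 4 of 4 pairs. Tagln (adjusted p = 0.0820) and Lum (0.41, adjusted p = 0.151) were higher in 4 of 4. Over all genes tested, 10.2% were called lower and 8.13% higher. Macrophages are rich in iron-recycling genes, and 5 of 10 macrophage markers in control and 4 in OGTi reached 1 TPM. Their sum was 49.8 to 178 TPM in control and 90.21 to 230.59 TPM in OGTi. Adgre1, Clec4f, Ptprc, Marco and Cd163 were at mean levels of at most 0.28 TPM in either group. The others were detected, with Lyz2 at 60.3 TPM in control and 70.0 TPM in OGTi (higher in 4 of 4 pairs, adjusted p = 0.0964), Csf1r at 4.89 and 3.87 TPM, Cd5l at 1.81 and 2.03 TPM, and Vsig4 at 1.04 and 0.347 TPM. Of the 9 macrophage markers tested, 1 was called, the lysosomal gene Cd68, which rose by 1.50 ± 0.21 (log2, SE; adjusted p = 0.00154). Summed levels of 10 red cell markers did not exceed 1.26 TPM in any library, and those of 10 hepatocyte and 10 endothelial markers did not exceed 7.63 and 3.2 TPM. At these low levels Cyp2e1 was higher (0.05 TPM in control and 0.745 TPM in OGTi, adjusted p = 0.00591), and Tek (1.14 and 0.102 TPM, adjusted p = 0.00235) and Lyve1 (0.465 and 0.0575 TPM, adjusted p = 0.0340) were lower. The part of other cells in the results below was not tested. In bulk RNA, fewer cells of a type and less RNA per cell cannot be told apart.

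OGTi replicate 1 stood apart from the other OGTi libraries by gene length. Over 3852 genes of 2900 to 5300 bases, its median log2 level lay -0.52 from the mean of the other 3 OGTi libraries, and over 536 genes of 900 to 1200 bases it lay 0.61 above it. OGTi replicate 4 lay -0.44 from the others in the short class and 0.14 above them in the long class. Among the 10 iron genes, Ftl1 (970 bases) and Fth1 (1145 bases) belong to the short class and the other 8, of 2935 to 5277 bases, to the long class. Values without this replicate are therefore given. For the ferritin genes the log2 fold change without it was 1.87 (Ftl1) and 0.78 (Fth1, adjusted p = 0.0183), and without replicate 4 it was 1.90 and 0.84 (Fth1, adjusted p = 0.0407).

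Cells take up iron bound to transferrin through the transferrin receptor, reduce it in endosomes and move it to the cytosol, where it is used, exported by ferroportin or stored in ferritin. When iron is scarce, the iron regulatory proteins bind a hairpin in target mRNAs, the iron-responsive element, and thereby hold back translation of ferritin and ferroportin while protecting the transferrin receptor mRNA from decay. Much of the control of these genes thus acts on translation and on mRNA stability, and mRNA levels alone describe only part of it.

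The hairpins are shown first because they are the sequences through which the iron regulatory proteins are known to act. Protein-coding transcripts of the GRCm39 annotation were searched for a C, 5 bases, the loop CAGTGN, and 5 bases able to pair with the first 5, G-T pairs included. A match was found in 47 of 21575 genes in the 5′ untranslated region (0.218%) and in 163 in the 3′ untranslated region (0.756%). Each sequence below runs 5′ to 3′ on the transcript strand over 27 bases, with the loop in capitals.

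Fth1 5′ untranslated region: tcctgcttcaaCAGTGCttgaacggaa

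Ftl1 5′ untranslated region: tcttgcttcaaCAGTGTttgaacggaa

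Slc40a1 5′ untranslated region: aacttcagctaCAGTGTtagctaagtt

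Tfrc 3′ untranslated region, match nearest the coding region: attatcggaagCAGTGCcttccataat

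Tfrc 3′ untranslated region, next match: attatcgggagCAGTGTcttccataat

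Tfrc 3′ untranslated region, next again: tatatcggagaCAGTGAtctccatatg

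Tfrc 3′ untranslated region, match farthest downstream: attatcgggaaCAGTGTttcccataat

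The Fth1 sequence lies at chr19:9960097-9960123 on the plus strand and is in 17 of 18 coding transcripts of the gene. The Ftl1 sequence lies at chr7:45109204-45109230 on the minus strand and is in 6 of 7. That of Slc40a1 lies at chr1:45964626-45964652 on the minus strand and is in 5 of 9, so that some annotated ferroportin transcripts lack it. The Tfrc matches lie on the plus strand at chr16:32450038-32450064, chr16:32450417-32450443, chr16:32450482-32450508 and chr16:32450529-32450555, and each is in 10 of 12 coding transcripts. No match was found in the other 6 genes, which says only that this exact pattern is absent from the transcripts searched. A hairpin with a bulge or a mismatch within the 5 pairs would be missed, so an iron-responsive element in these genes is not excluded. A match is a description of sequence and no measure of binding. In the RefSeq promoter windows (300 bases, GRCm38.p6), available for 7 of the 10 genes, the letters TGACNNNGC were searched on both strands, and 1 of the 14 windows of these genes, a window of Ncoa4, held them, against 4071 of 32851 windows overall (12.4%).

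Ftl1 (chr7:45107367-45109308, minus strand, 4 exons) encodes the ferritin light subunit, which favours nucleation of the iron core. It had the highest TPM of all genes in each of the 8 libraries. Control replicates 1 to 4 held 33367.29, 38496.53, 20009.23 and 18709.74 TPM, and OGTi replicates 1 to 4 held 86691.98, 92893.36, 81073.64 and 53654.35 TPM. The lowest OGTi library was thus above the highest control library. In expected counts, Ftl1 took 1.54%, 1.83%, 0.884% and 0.824% of the control libraries and 5.02%, 4.56%, 3.81% and 2.47% of the OGTi libraries, or 1.27% ± 0.494 (SD, n = 4) against 3.96% ± 1.12 (SD, n = 4). At this depth the 95% Wilson interval of the lowest OGTi share was 2.46% to 2.47%, which covers counting error only, so the spread between cultures set the precision.

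Scaled counts are counts adjusted to a common library size, and serve to compare a gene between libraries. Those of Ftl1 were 515350.2, 589676.6, 295719.6 and 281319.6 in control and 1922851.3, 1530342.1, 1553046.6 and 995301.7 in OGTi. The log2 fold change was 1.87 ± 0.18 (SE), a 3.66-fold difference, and the within-pair differences were 1.90, 1.38, 2.39 and 1.82 for replicates 1 to 4. Control replicates 1 and 2 were higher than replicates 3 and 4, and the smallest within-pair difference was that of replicate 2, whose control library was the highest. Because Ftl1 chose the set, no p is given.

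**Figure D1:**
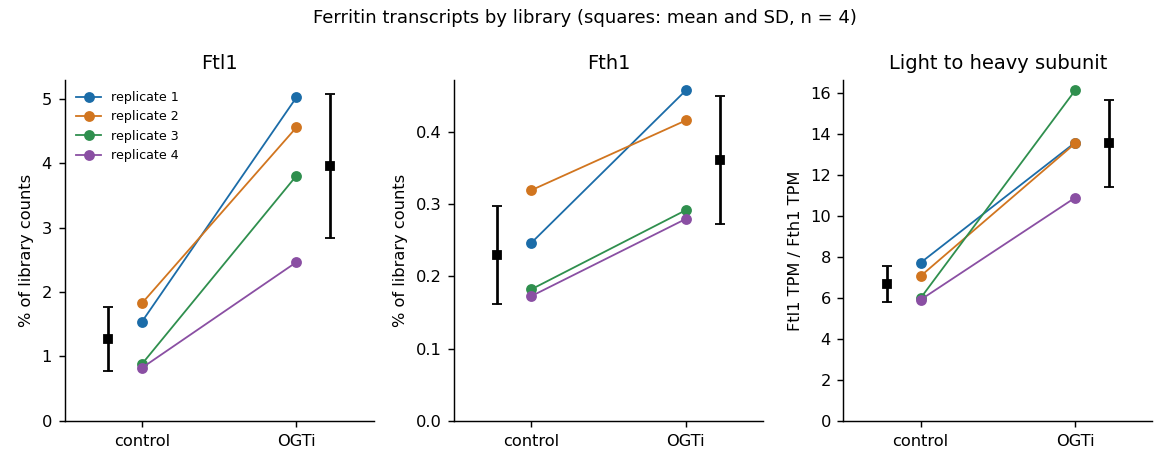
Share of expected counts in percent taken by Ftl1 and by Fth1, and the ratio of Ftl1 to Fth1 TPM, in each of the 8 libraries. Points are libraries, lines join control and OGTi libraries of one replicate, and squares with bars are the mean and SD (n = 4). Ftl1 runs from 0.824% to 1.83% in control and from 2.47% to 5.02% in OGTi, and each OGTi ratio lies above each control ratio. Fth1 runs from 0.173% to 0.319% in control and from 0.279% to 0.457% in OGTi, so its groups overlap in share.

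Fth1 (chr19:9957911-9962462, plus strand, 4 exons) encodes the heavy subunit, the ferroxidase that oxidises iron as it enters the shell. Its scaled counts were 82382.1, 102999.6, 60916.5 and 58944.5 in control and 174981.7, 139569.3, 118911.8 and 112796.5 in OGTi. The groups did not overlap in scaled counts, but they did in TPM and in share of expected counts. Control replicate 2 (5436.54 TPM, 0.319%) lay above OGTi replicates 3 (5018.52 TPM, 0.292%) and 4 (4918.47 TPM, 0.279%). Fth1 rose by a log2 fold change of 0.86 ± 0.17 (SE; 1.81-fold; edgeR quasi-likelihood test, Benjamini-Hochberg adjusted p = 0.00803 over 19963 genes), and was higher in 4 of 4 pairs, by 1.09, 0.44, 0.96 and 0.94. As with Ftl1, pair 2 gave the smallest difference. Per length, Fth1 stood at 4060.64 ± 1049.02 TPM (SD, n = 4) in control and 5789.51 ± 968.608 TPM (SD, n = 4) in OGTi, and its rank by TPM lay between 6 and 24 in control and between 6 and 20 in OGTi.

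The subunits moved by unequal amounts. The ratio of light to heavy chain TPM was 7.73, 7.08, 6.00 and 5.92 in control and 13.6, 13.6, 16.2 and 10.9 in OGTi, that is 6.69 ± 0.875 against 13.6 ± 2.14 (SD, n = 4), with no overlap between groups. This ratio contains the gene that chose the set, and is given as a description. Together both subunits took 1.50% ± 0.560 of the expected counts of control libraries and 4.32% ± 1.20 of those of OGTi libraries, and 3.17% ± 1.08 and 8.44% ± 1.81 of TPM (each SD, n = 4).

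Ferritin genes have many processed copies, which can share reads with the parent gene. Of 14 ferritin-like entries sought, 9 were in the table. Ftl1-ps2, a copy of the light chain gene, held 318 to 656 expected counts in control and 869 to 2097 in OGTi, which amounted to 1.04 ± 0.0512 and 1.08 ± 0.0529 counts per 1000 counts of Ftl1 (SD, n = 4). This proportion was alike in both groups, and how reads were divided between the copy and Ftl1 could not be checked, so the Ftl1-ps2 values are uncertain. The other 8 entries held at most 6 counts each over all libraries.

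Apart from ferritin, none of the iron genes passed the test. Of the 9 genes other than Ftl1, 1 was called higher (Fth1), 0 were called lower and 8 were not called, at an adjusted p of at most 0.05, against 8.13% of all genes tested called higher and 10.2% called lower. With edgeR, 0 of the 9 were lower at an unadjusted p under 0.05 as well, and DESeq2 and limma on log2(TPM + 1) also called 0 lower. Among these 9 genes, 1 (Fth1) had groups that did not overlap in scaled counts and was higher in OGTi, and 0 did not overlap and were lower. Over all genes tested these shares were 11.5% and 12%, so the higher count was near the background. The groups of Ftl1 did not overlap either, but Ftl1 chose the set and is left out of this count. The median log2 fold change of the 10 genes was -0.25 (-0.27 without Ftl1), against 0.01 for all genes tested. It turned positive without replicate 1, at 0.09 (0.08 without Ftl1), and was -0.07 with the trend on gene length removed. Each of the 8 genes other than ferritin had its lowest within-pair difference in pair 1, which holds the OGTi library that stood apart, and none of the 8 moved in one direction in all 4 pairs.

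**Figure D2:**
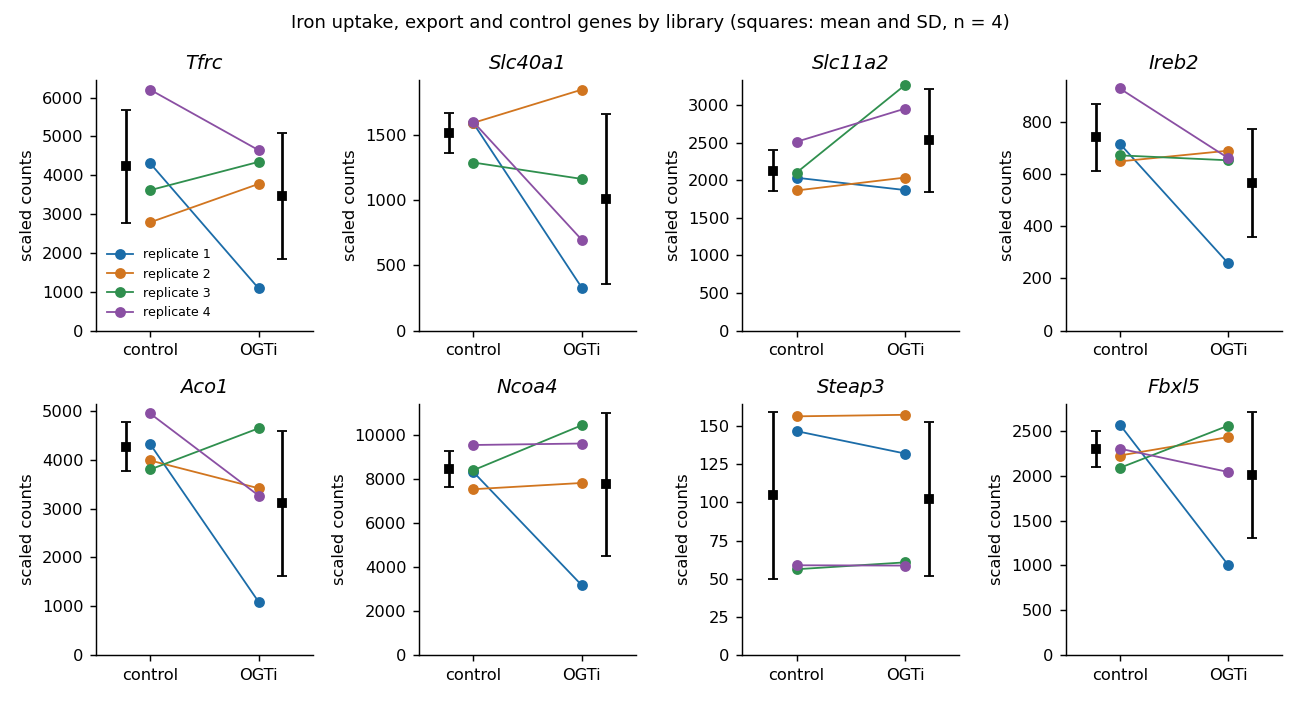
Scaled counts of the 8 iron genes other than ferritin, on linear axes from 0. Points are libraries, lines join the libraries of one replicate, and squares with bars are the mean and SD (n = 4). The groups overlap for all 8 genes, and OGTi replicate 1 is the lowest library for Tfrc, Slc40a1, Ireb2, Aco1, Ncoa4 and Fbxl5.

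Iron uptake was represented by Tfrc, Steap3 and Slc11a2. Tfrc (chr16:32427556-32451612, 19 exons), the receptor for iron-loaded transferrin, had scaled counts of 4308.3, 2786.8, 3615.1 and 6202.9 in control and 1086.6, 3775.6, 4343.3 and 4645.1 in OGTi. Its log2 fold change was -0.40 ± 0.37 (SE; adjusted p = 0.507), with within-pair differences of -1.99, 0.44, 0.26 and -0.42. Pairs thus went both ways, and without replicate 1 the estimate was 0.10 (adjusted p = 0.802). The ratio of ferritin to Tfrc TPM, again a description, was spread widely, from 324.367 to 1485.73 in control and from 1424.78 to 11825.2 in OGTi. The highest value was that of OGTi replicate 1, the library that stood apart by gene length, and the other OGTi libraries did not exceed 2674.76.

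Steap3 (chr1:120118487-120200435, 5 exons), an endosomal reductase that converts ferric to ferrous iron, was the least abundant of the genes. It held 146.8, 156.5, 56.2 and 58.8 scaled counts in control and 132.1, 157.5, 60.7 and 58.6 in OGTi, from 51 to 178 expected counts per library. Replicates 1 and 2 were above replicates 3 and 4 in both groups, by a wider margin than the groups differed within any pair. Its log2 fold change of -0.01 ± 0.27 (SE; adjusted p = 0.984) was the smallest of the set.

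Slc11a2 (chr15:100285776-100322953, 17 exons) encodes DMT1, the carrier of ferrous iron across the endosomal and plasma membranes. Its scaled counts were 2032.6, 1863.4, 2100.4 and 2510.8 in control and 1869, 2034.7, 3265.2 and 2952 in OGTi. The highest libraries were OGTi replicates 3 and 4, yet the groups overlapped. The log2 fold change of 0.22 ± 0.21 (SE; adjusted p = 0.527) did not exceed the spread between pairs, which differed by -0.12, 0.13, 0.64 and 0.23, and without replicate 1 it was 0.33 (adjusted p = 0.271).

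Slc40a1 (chr1:45947211-45965683, 8 exons), the gene for ferroportin, encodes the only known iron exporter of mammalian cells. It had 1590.5, 1593.5, 1289.1 and 1600.3 scaled counts in control and 328.7, 1848.2, 1163.1 and 696.1 in OGTi. The OGTi libraries spanned a far wider range than the control libraries, and OGTi replicate 2 was the highest of all 8. The log2 fold change was -0.84 ± 0.38 (SE; adjusted p = 0.162), the most negative of the set, with within-pair differences of -2.27, 0.21, -0.15 and -1.20. Without replicate 1 it was -0.37 (adjusted p = 0.432), and it was called only when no low-count filter was used (-0.84, adjusted p = 0.0377).

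Ncoa4 (chr14:31881822-31902234, 10 exons), the receptor that delivers ferritin to lysosomes for the release of stored iron, was the most abundant gene after the ferritin subunits. It had 8313.1, 7532, 8395.1 and 9542.3 scaled counts in control and 3165.6, 7816, 10441.2 and 9609.5 in OGTi. Apart from OGTi replicate 1, the libraries of both groups were interleaved. Over all pairs it differed by -0.24 ± 0.28 (log2, SE; adjusted p = 0.613), and without replicate 1 it was 0.13 (adjusted p = 0.637).

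The sensors of cytosolic iron are Aco1, Ireb2 and Fbxl5. Aco1 (chr4:40142998-40199010, 21 exons) encodes iron regulatory protein 1, which is a cytosolic aconitase when it carries an iron-sulfur cluster. It had 4323.9, 3987.2, 3802 and 4950.3 scaled counts in control and 1088.6, 3417.2, 4646.8 and 3267.9 in OGTi. OGTi replicate 3 lay within the control range and the other 3 OGTi libraries lay below it. The log2 fold change was -0.61 ± 0.33 (SE; adjusted p = 0.240), and -0.18 (adjusted p = 0.621) without replicate 1.

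Ireb2 (chr9:54770970-54820011, 22 exons) encodes iron regulatory protein 2, which is degraded when iron is plentiful. Scaled counts were 717.3, 649, 672.2 and 928.8 in control and 258.1, 690.1, 653.3 and 661.6 in OGTi. OGTi replicate 1 was the only library outside the range of the others on the low side. Ireb2 differed by -0.47 ± 0.29 on the log2 scale (SE; adjusted p = 0.298), and -0.15 (adjusted p = 0.694) without replicate 1. The ratio of Aco1 to Ireb2 TPM was 8.09 ± 0.438 in the control group and 7.30 ± 1.38 in the OGTi group (SD, n = 4), which lies within the spread of the OGTi libraries.

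Fbxl5 (chr5:43900859-43978980, 11 exons) encodes the iron-binding F-box protein that targets iron regulatory protein 2 for degradation. It had 2572.9, 2226.6, 2088.4 and 2303.7 scaled counts in control and 1003.6, 2432.2, 2560.1 and 2042.3 in OGTi. Once more only OGTi replicate 1 lay well outside the rest. Between groups it differed by -0.27 ± 0.28 on the log2 scale (SE; adjusted p = 0.576), and 0.08 (adjusted p = 0.803) without replicate 1.

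**Figure D3:**
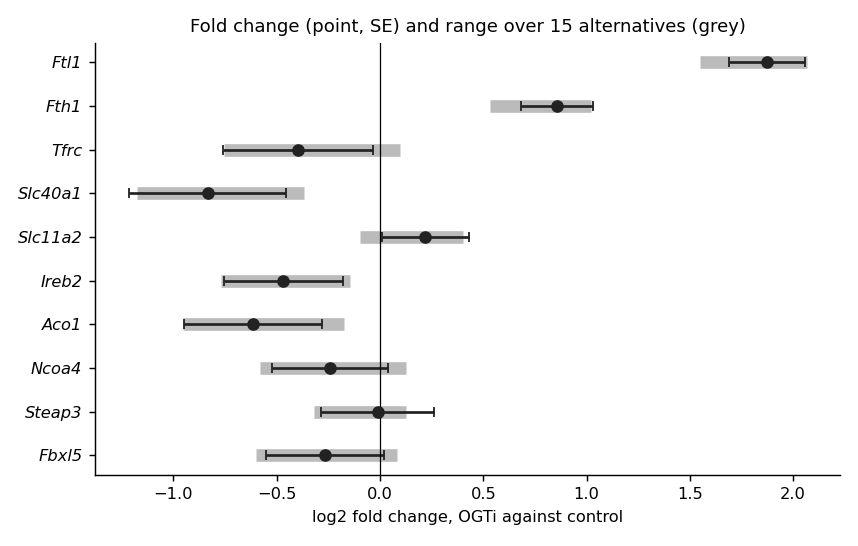
Log2 fold change (OGTi over control) of each of the 10 genes, with the point and bar giving the estimate and its standard error and the grey band the range over 15 alternative ways of processing. Ftl1 (1.87) and Fth1 (0.86) stay above 0 throughout, while the bands of Tfrc, Slc11a2, Ncoa4, Steap3 and Fbxl5 cross 0.

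**Figure D4:**
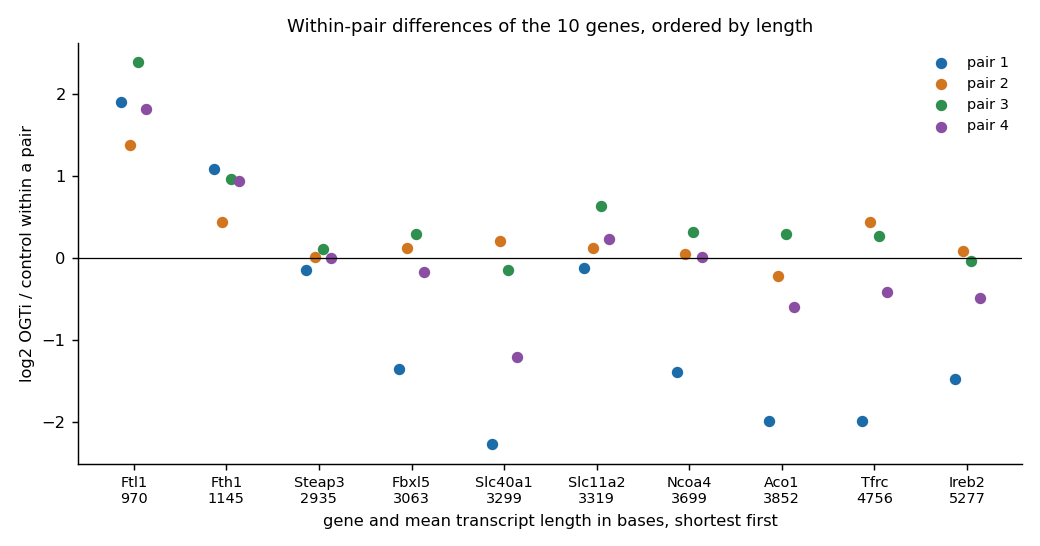
Within-pair log2 differences of the 10 genes, ordered by mean transcript length in bases. Pair 1 is the lowest point of each of the 8 genes from Steap3 (2935 bases) to Ireb2 (5277 bases), and lies at 1.90 and 1.09 for the short genes Ftl1 and Fth1.

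When each library's trend of level on gene length was removed, the long genes moved towards 0 or above it, with log2 fold changes of -0.13 for Tfrc, -0.66 for Slc40a1, 0.40 for Slc11a2, -0.21 for Ireb2, -0.39 for Aco1, -0.03 for Ncoa4, 0.12 for Steap3 and -0.12 for Fbxl5, and none was called. Those of Ftl1 and Fth1 were 1.80 and 0.80, and Fth1 was still called (adjusted p = 0.00574).

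The order of levels in control cells, per length, was Ftl1 (27645.7 ± 9808.91 TPM), Fth1 (4060.64 ± 1049.02), Ncoa4 (118.77 ± 12.5), Aco1 (57.4 ± 6.77), Tfrc (45.7 ± 16.0), Fbxl5 (39.5 ± 3.05), Slc11a2 (33.5 ± 4.53), Slc40a1 (24.1 ± 2.13), Ireb2 (7.13 ± 1.18) and Steap3 (1.88 ± 0.958; each mean TPM ± SD, n = 4). Neighbours from Aco1 through Tfrc and Fbxl5 to Slc11a2 overlapped in their ranges over libraries, whereas the other neighbours did not. In OGTi the order from Ftl1 to Aco1 was the same, with Ncoa4 at 89.4 ± 39.8 TPM and Aco1 at 34.4 ± 17.2 TPM, and Slc11a2 (32.2 ± 9.30), Tfrc (30.8 ± 15.4) and Fbxl5 (28.5 ± 11.8) followed within each other's spread. Slc40a1 (13.5 ± 10.004), Ireb2 (4.63 ± 2.09) and Steap3 (1.49 ± 0.830) were the lowest there too.

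Use of transcripts of different length was read from the abundance-weighted gene length that RSEM reports. Ftl1 has a single transcript in the table, and the 9 others have several. An exact two-sided permutation test between groups of 4 libraries, without the pairing, has a smallest possible p of 0.0286, which for 1 gene alone becomes 0.257 after adjustment over the 9. A lone gene could thus not pass, and none did. The lowest p was that of Slc11a2, which has 11 transcripts and whose weighted length was 3329 ± 18.1 bases in control and 3309 ± 12.8 bases in OGTi (SD, n = 4; exact p = 0.0571, adjusted p = 0.514 over the 9 genes). It was shorter in OGTi in 4 of 4 pairs, a number of pairs that cannot give an exact p below 0.125. Ireb2 varied most, from 4929 to 5832 bases among the OGTi libraries, against 5207 to 5354 bases among the control libraries.

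The genes whose log2 scaled counts most resembled those of Ftl1 over the 8 libraries, among 6433 genes with a mean TPM of at least 10, were Ftl1-ps2 (Pearson r = 0.998), Fads3 (0.992), Trim17 (0.991), Cyp4v3 (0.988) and Ccl25 (0.988). Their log2 fold changes were 1.92, 1.05, 0.56, 0.86 and 0.80. Among the iron genes, Fth1 had r = 0.966 with Ftl1 and the other 8 ranged from -0.619 (Ireb2) to 0.335 (Steap3). These coefficients describe 8 libraries that share a treatment and its scaling, and the copy Ftl1-ps2 shares sequence with Ftl1.

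A wider list of 78 genes of iron and heme metabolism, written from general knowledge, placed ferritin among its neighbours. All 78 were in the table and 72 were tested. Of these, 7 were higher (9.72%), 6 were lower (8.33%) and 59 were not called, against 8.13% and 10.2% of all genes tested, shares near the background. Its median log2 fold change was 0.06, against 0.01 for all genes. The calls are given by role, and no test compared the roles. The same shares of all genes, 8.13% higher and 10.2% lower, are the background for the edgeR calls of each role. With DESeq2 the background was 11.9% higher and 12.4% lower. No share of all genes is given for an unadjusted p under 0.05, so counts at that threshold have no background beside them.

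Heme breakdown and transport held 4 of the 7 higher calls, among 10 genes, and 1 lower call. Hmox1, the inducible heme oxygenase that frees iron from heme, held 45553.9 ± 25959.7 scaled counts in control libraries and 290651 ± 150918 in those of OGTi (SD, n = 4). It rose by 2.68 ± 0.25 (log2, SE; adjusted p = 0.000277), in 4 of 4 pairs. Blvrb, a biliverdin reductase downstream of heme oxygenase, rose by 1.75 ± 0.23 (adjusted p = 0.00106), from 4077.19 ± 469.678 to 14082.2 ± 4075.28 scaled counts. Slc48a1, a heme carrier of the lysosomal membrane, rose by 0.89 ± 0.18 (adjusted p = 0.00767). The remaining calls, named after their values were seen, were the heme-binding protein Pgrmc1 (0.82 ± 0.18, adjusted p = 0.0124) and the efflux pump Abcg2 (-1.01 ± 0.22, adjusted p = 0.0111). Pgrmc1 was not called without replicate 3 (adjusted p = 0.0767), and Abcg2 not without replicate 3 (0.0588), replicate 4 (0.0539) or the replicate block (0.0657). The median of this group was 0.57.

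Heme synthesis, with 11 genes tested, held 2 higher calls and 0 lower ones. Uros, which closes the porphyrin ring, rose by 0.97 ± 0.21 (adjusted p = 0.0115), and Alas1, the first and rate-limiting enzyme in non-erythroid cells, rose by 0.69 ± 0.21 (adjusted p = 0.0427). In the lower direction 4 of the 11 were at an unadjusted p under 0.05 in edgeR, and DESeq2 called 1. Uros was not called without replicate 3 (adjusted p = 0.0810), and Alas1 not without replicate 2 (0.0916), 3 (0.240) or 4 (0.0656), with library totals alone (0.112) or in the 3 fits on TPM (0.36, adjusted p from 0.165 to 0.201). Alas1 kept its call in 8 of 15 alternatives. The group median of 0.02 was close to that of all genes.

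Ferrireductases and ferroxidases, with 7 genes tested, held 3 lower calls and 0 higher ones. All 3 belong to the STEAP family of metalloreductases, to which Steap3 also belongs. Steap4 fell by 2.05 ± 0.34 (log2, SE; adjusted p = 0.00311), from 1222.68 ± 521.424 to 356.745 ± 279.507 scaled counts (SD, n = 4). Steap2 fell by 1.32 ± 0.26 (adjusted p = 0.00691) and Steap1 by 0.74 ± 0.20 (adjusted p = 0.0288), each lower in 4 of 4 pairs, while Steap3 was at -0.01. In the higher direction 0 genes were at an unadjusted p under 0.05 and DESeq2 called 0. Steap4 was not called without the replicate block (adjusted p = 0.0523), and Steap1 not without replicate 2 (0.0995), 3 (0.151) or 4 (0.0966), or with upper-quartile scaling (0.0771).

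Iron uptake, with 9 genes tested, held 1 lower call, the endocytic receptor Lrp1, which binds heme-hemopexin among many ligands (-0.97 ± 0.21, adjusted p = 0.0111). In the higher direction edgeR called 0, with 0 at an unadjusted p under 0.05, and DESeq2 called 0. Lrp1 was not called without replicate 3 (0.0667), replicate 4 (0.0549) or the block (0.0860). Trf, which encodes transferrin itself, was at 12807.3 ± 3681.25 scaled counts in control and 11522.7 ± 4556.17 in OGTi (-0.18 ± 0.18, adjusted p = 0.530). Slc39a14, a carrier for iron outside transferrin, was low, at 405.471 ± 94.7 and 448.067 ± 118.3 scaled counts (0.14 ± 0.23, adjusted p = 0.738). The chaperones that hand iron to ferritin, Pcbp1 and Pcbp2, were at -0.05 ± 0.23 (adjusted p = 0.914) and -0.10 ± 0.21 (adjusted p = 0.806). In their group of 7 genes tested edgeR called 0, with 0 at an unadjusted p under 0.05 and 0 called by DESeq2.

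Mitochondrial iron and iron-sulfur cluster genes, with 19 tested, held 1 higher and 1 lower call. Fdxr, which reduces ferredoxin, rose by 1.17 ± 0.25 (adjusted p = 0.0101). The mitochondrial transporter Abcb8 fell by 1.11 ± 0.29 (adjusted p = 0.0256). Abcb8 was not called without replicate 2 (0.0613), 3 (0.0968), 4 (0.108) or the block (0.0537), nor with the length trend removed (-0.92, adjusted p = 0.0790). Fdxr was not called with limma on log2(TPM + 1) (0.74, adjusted p = 0.0523). Of the hepcidin axis, which sets systemic iron and belongs mainly to hepatocytes, 9 of 13 genes were tested and edgeR called 0, with 0 at an unadjusted p under 0.05 and 0 called by DESeq2. Hamp, the gene for hepcidin, was among the 4 genes too low to test.

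**Figure D5:**
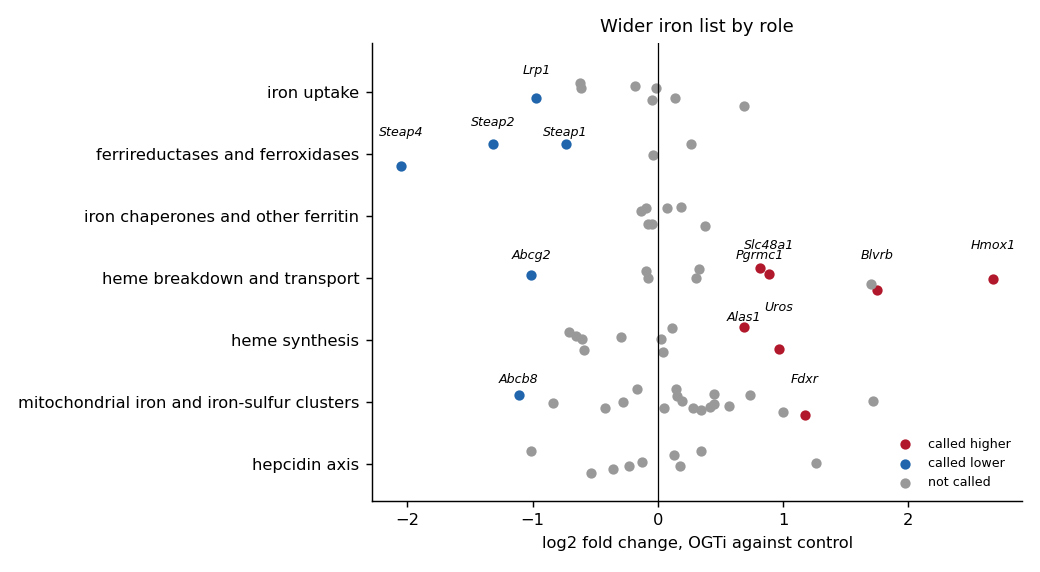
Log2 fold change (OGTi over control) of 68 genes of the wider iron and heme list by role, with called genes marked and named. The heme breakdown group reaches 2.68 (Hmox1) and the ferrireductase group -2.05 (Steap4), and 4 tested genes of very low counts are not drawn.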

How the data were processed

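As the labels and methods state, the authors prepared stranded mRNA libraries after oligo-dT enrichment, sequenced them paired-end, aligned reads with Bowtie2 2.3.5.1 to GRCm39 (mm39) and quantified genes with RSEM 1.3.1. For each library they deposited expected counts, estimated per gene and not normalized, TPM, and abundance-weighted gene lengths. Transcript identifiers in these files are RefSeq ones, although the methods name GENCODE. A deposited comparison table (the authors' counts, normalised values, fold changes and p-values from DESeq2 1.36.0) was not used. RSEM can split reads between similar genes, and 0.251% to 0.978% of the genes detected per library had a fractional count. Library totals ran from 30068876 to 37372420.

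After rounding, expected counts were fitted in edgeR 4.0.16 (R 4.3.3). The 19963 genes with a total of at least 10 counts were scaled by TMM and fitted by a quasi-likelihood model with the replicate number as a block, following the pairing in the study's methods. The Benjamini-Hochberg adjustment ran over all of these genes, with a threshold of 0.05 for a call. The standard error was the log2 fold change divided by the root of F. Scaled counts are counts over the effective library size (total times TMM factor), times the mean of that size. Deviations of same-numbered libraries from their group means had correlations across genes of 0.160, 0.224, 0.105 and 0.318 for replicates 1 to 4, against -0.312 to 0.208 for libraries of different numbers, so the overlap leaves the pairing resting on the methods. The labels call the replicates biological but name no animals.

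The genes, lists and tests were chosen with earlier results of these data known. All 10 genes were named, and from each role group of the wider list up to 3 called genes of lowest adjusted p, with Hmox1, Trf, Pcbp1, Pcbp2 and Slc39a14 whatever their p, and the 5 genes most like Ftl1. Marker lists covered stellate, macrophage, hepatocyte, endothelial and red cells. Hairpins were read from the GENCODE transcripts of GRCm39. One gene of the wider list is not reported here and is left out of its counts. The planned comparison of ferritin protein sequences was not analysed here. Alternatives, 15 in all, were other scalings, filters, tools (DESeq2 1.42.0, limma 3.58.1 on log2(TPM + 1) or log2(TPM + 0.1)), a length correction, no block, and each replicate left out.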

Additional observations from a re-analysis of the deposited data

Results flagged for a closer look

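In 54 groups of 4 libraries, a control and an OGTi group for each of the 10 iron genes and 17 named genes of the wider list, the highest or lowest library was compared with its neighbours by Dixon's ratio, which by chance picks out about 2.7 groups. It picked out 4. Slc40a1 in control replicate 3 was at 1289.1 scaled counts, below 1590.5 to 1600.3 in the other control libraries. Ireb2 in OGTi replicate 1 was at 258.1 scaled counts, below 653.3 to 690.1 in the other OGTi libraries. Steap1 in OGTi replicate 1 was at 2895.2 scaled counts, above 2040.3 to 2142.2 in the others. Trf in OGTi replicate 3 was at 18272.6 scaled counts, above 8281.1 to 9929.9 in the others.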

How the results depend on the processing

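Over 15 alternatives the log2 fold change of Ftl1 ranged from 1.55 to 2.06 and that of Fth1 from 0.53 to 1.02 (adjusted p from 0.000265 to 0.0410), and Fth1 was called in all 15. Library totals alone moved the median of all genes to -0.19 and upper-quartile scaling to 0.13, and under these Ftl1 was at 1.68 and 2.00 and Fth1 at 0.66 and 0.98. No other of the 10 genes was called under any alternative except Slc40a1 without a low-count filter, which made 1 gene lower in place of 0. Estimates of Tfrc, Ncoa4 and Fbxl5 turned positive without replicate 1 (0.10, 0.13 and 0.08) without being called in any fit. Of the 13 called genes of the wider list, 4 (Steap2, Hmox1, Blvrb and Slc48a1) kept their call and direction in every alternative. The count of higher genes in that list, 7, ranged from 4 to 8 when replicates were left out in turn, was 4 without replicate 3 (4.38% of all genes higher, against 8.13%), and was 10 with no low-count filter (7.13%) and 10 with DESeq2 (11.9%). The count of lower genes, 6, ranged from 2 to 8 when replicates were left out, and was 2 without replicate 3 and 2 without replicate 4, where 5.52% and 5.67% of all genes were called lower, against 10.2%. It was 10 with library totals alone (14.6% of all genes), 11 with limma on log2(TPM + 1) (17.3%), 11 on log2(TPM + 0.1) (17.4%) and 13 with genes of a mean TPM of at least 1 (28.7%), so the background moved in the same direction. Without the replicate block the lower genes of the wider list numbered 2 (7.67% of all genes), with Steap4, Abcg2, Lrp1 and Abcb8 at adjusted p of 0.0523, 0.0657, 0.0860 and 0.0537, while Fth1 was called with and without the block (0.84, adjusted p = 0.0344 without it). The cause of these changes was not tested. Trf was lower in the 3 fits on TPM (adjusted p from 0.0285 to 0.0393).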
